A study of Homo sapiens with 6 samples.

Results

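The promoters of 10 genes that define the epithelial or the mesenchymal state of a cell were examined for 2 histone marks in H1299, a human cell line from a non-small cell lung cancer. Of the 10 genes, 3 mark the epithelial state (CDH1, EPCAM and ESRP1) and 7 the mesenchymal state (CDH2, VIM, ZEB1, ZEB2, SNAI1, SNAI2 and TWIST1). They were chosen by name, and each was represented by its transcription start site (TSS) on hg19 and the 5 kb on either side of it. Chromatin immunoprecipitation and sequencing had been done for H3K4me3 and for H3K27me3 in H1299 cells without treatment and in H1299 cells treated with 5 mM metformin, a biguanide drug used against type 2 diabetes. Each mark was mapped in 1 library per condition, and 2 input libraries were not analysed here. All libraries came from this cell line, and the labels do not state how long the treatment lasted. Of 50585 control and 53454 metformin H3K4me3 intervals in the peak lists, 28 and 27 lay within 5 kb of a TSS of these genes. Of 85579 control and 85952 metformin H3K27me3 intervals, 2 and 5 did.

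In an epithelial-to-mesenchymal transition, cells give up the junctions that tie them to their neighbours and take on a motile form. Transcription factors of the ZEB, SNAI and TWIST families bind E-box sequences and repress epithelial genes such as CDH1, while mesenchymal genes such as VIM and CDH2 are switched on. H3K4me3, trimethylated lysine 4 of histone H3, is found at the promoters of active or poised genes. H3K27me3, placed by the Polycomb complex PRC2, is found at repressed genes. Transcript levels were not measured in this series.

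H3K4me3 covered between 1270 and 6808 bp of the windows at 6 of the 7 mesenchymal genes, SNAI2 being the exception, and at most 1117 bp at the epithelial ones. CpG dinucleotides are the sequence feature that H3K4me3 is best known to accompany. The 250 bases upstream of a start listed in RefSeq's promoter table (GRCh38.p14) are therefore shown for the 4 genes it holds. Capitals mark each CpG.
CDH2, chr18:28177131-28177380, - strand: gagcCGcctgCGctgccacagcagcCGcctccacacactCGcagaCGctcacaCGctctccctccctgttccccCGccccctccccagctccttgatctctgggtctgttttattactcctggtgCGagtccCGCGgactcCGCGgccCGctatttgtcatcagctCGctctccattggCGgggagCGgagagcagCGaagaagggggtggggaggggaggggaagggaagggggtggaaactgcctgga
VIM, chr10:17227991-17228240, + strand: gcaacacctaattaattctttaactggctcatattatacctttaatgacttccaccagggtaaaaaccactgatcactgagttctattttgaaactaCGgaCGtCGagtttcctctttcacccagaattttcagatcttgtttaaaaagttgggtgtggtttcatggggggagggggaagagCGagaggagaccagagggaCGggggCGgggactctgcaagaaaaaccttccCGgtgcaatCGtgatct
ZEB1, chr10:31318167-31318416, + strand: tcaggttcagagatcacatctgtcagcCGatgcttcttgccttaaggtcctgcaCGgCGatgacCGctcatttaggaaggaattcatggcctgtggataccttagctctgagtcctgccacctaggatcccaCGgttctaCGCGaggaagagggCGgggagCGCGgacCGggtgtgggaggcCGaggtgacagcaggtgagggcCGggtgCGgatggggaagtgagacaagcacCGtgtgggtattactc
ZEB2, chr2:144520120-144520369, - strand: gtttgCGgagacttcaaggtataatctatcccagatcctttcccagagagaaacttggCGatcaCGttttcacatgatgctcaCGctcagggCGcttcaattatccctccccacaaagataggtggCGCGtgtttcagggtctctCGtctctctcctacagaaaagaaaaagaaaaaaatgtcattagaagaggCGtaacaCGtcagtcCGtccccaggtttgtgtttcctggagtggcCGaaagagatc
The CDH2 stretch held 17 CpGs, that of ZEB1 15, that of ZEB2 12 and that of VIM 8, against a median of 11 over 35116 promoters in the table. VIM, which carried some of the longest H3K4me3 described here, had the fewest of these 4. The table lists 7 starts for ZEB1 and 2 for CDH2, and the most upstream is shown. These coordinates are on GRCh38.p14, whereas the intervals are on hg19, and positions were not converted, so the printed bases were not placed on the intervals. The starts listed there may differ from the TSS used for the windows. The CpG counts therefore need not describe the bases just upstream of that TSS. The E-box CAGGTG or its reverse complement CACCTG occurred once among the 4 stretches, its first base 57 bases before the ZEB1 start listed there. Of all promoters of this length in the table, 17.5% hold a match.

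H3K4me3 lay within 5 kb of 8 of the 10 starts in control cells and of 8 in metformin-treated cells, but the genes were not the same. CDH2, VIM, ZEB1, ZEB2, SNAI1, TWIST1 and ESRP1 had it in both lists, SNAI2 in the control list and EPCAM in the metformin list. CDH1 had it in neither. Of all H3K4me3 tiles marked in either condition, 7.61% were marked in the control list alone and 12.2% in the metformin list alone. Over the genome, 8.27% of tiles of 10 kb, the length of a gene window, held H3K4me3 in control cells and 8.7% after metformin. Tiles are not centred on starts as the windows are, so their share is a genome background and not a promoter background. H3K27me3 was near 2 genes, CDH1 and SNAI2, in both conditions, against 14.6% of tiles in control and 14.9% after metformin, so this count is close to the background and is not a result about these genes. The marks did not share a base in any of the 10 windows in either condition, where 0.328% of control and 0.526% of metformin tiles held such sequence.

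**Figure D1:**
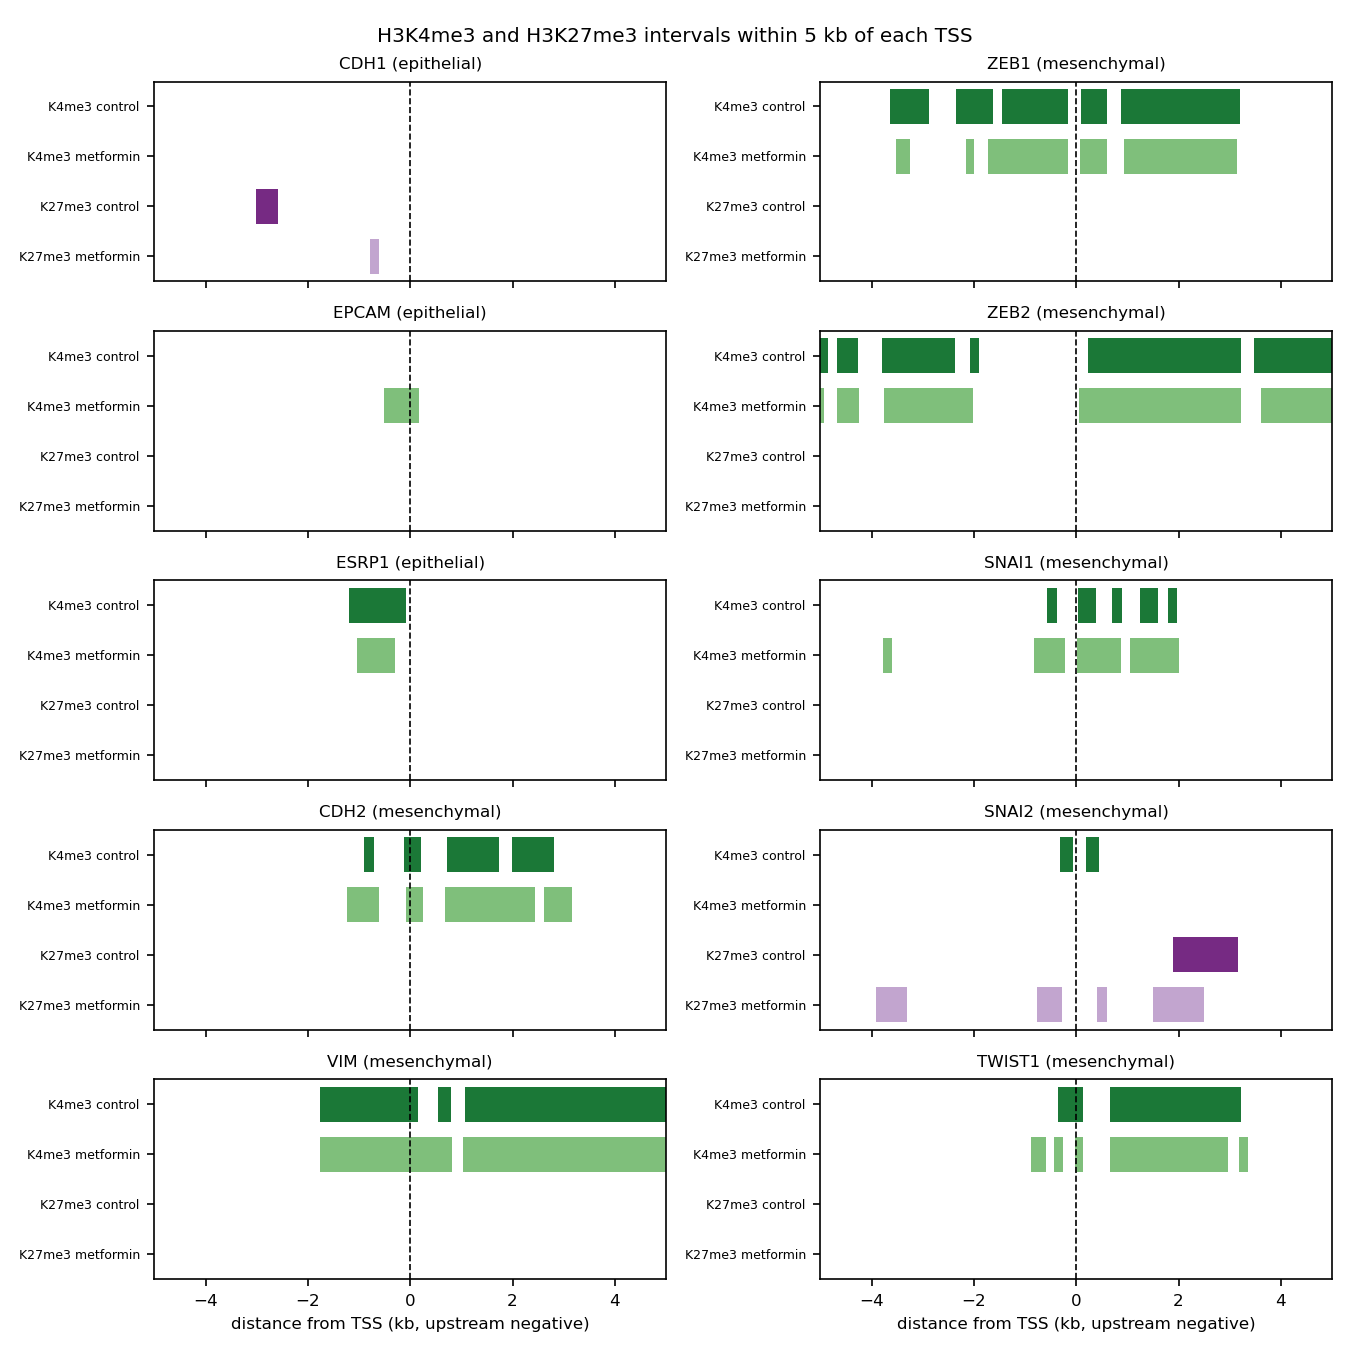
H3K4me3 (green) and H3K27me3 (purple) intervals within 5 kb of each TSS, drawn along the direction of transcription, with distance from the TSS in kb on the x axis and 1 lane for each list (darker: control, lighter: metformin). VIM, ZEB1, ZEB2, CDH2, SNAI1 and TWIST1 carried H3K4me3 and no H3K27me3, and CDH1 and SNAI2 are the genes with H3K27me3.

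The 7 mesenchymal genes held 25577 of the 26694 bp of H3K4me3 in the 10 windows in control cells (95.8%) and 27101 of 28523 bp after metformin (95.0%). The summed covered length in the 10 windows was 1.07 times as large after metformin, and over all tiles the ratio was 1.12. More of the window was covered in the metformin list for 6 of the 9 genes marked in either condition, and in the control list for 3. Among all tiles marked in either condition 64% had the greater covered length in the metformin list. Covered length was at least 1.5 times as large after metformin, or present only there, at 2 of the 9 genes, EPCAM and SNAI1, where the background was 28.3% of marked tiles. It was at least 1.5 times as large in control cells, or present only there, at ESRP1 and SNAI2, where the background was 13.5%. At 2 of 9 genes, neither count is read as a result about these genes, and with 1 library per group no difference below has a replicate check.

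In the 10 windows 23704 bp were covered by H3K4me3 in both conditions, which is 88.8% of the control length and 83.1% of the metformin length. VIM (6093 bp), ZEB1 (4539 bp) and ZEB2 (6322 bp) gave most of this shared length. The same share was not computed over the genome, so it is not read as a result about these genes. Of the 28 control intervals 2 had no overlap with a metformin interval, both at SNAI2, against 22.7% of all control H3K4me3 intervals. Of the 27 metformin intervals 3 had none in control cells, 1 each at EPCAM, SNAI1 and TWIST1, against 32.7% of all metformin intervals. For H3K27me3 the unpartnered intervals numbered 1 of 2 in control cells and 4 of 5 after metformin, against 51.7% and 53.7% of the whole lists. Its covered length was at least 1.5 times as large after metformin at SNAI2 and in control cells at CDH1, where the background was 39.9% and 33.1% of marked tiles.

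**Figure D2:**
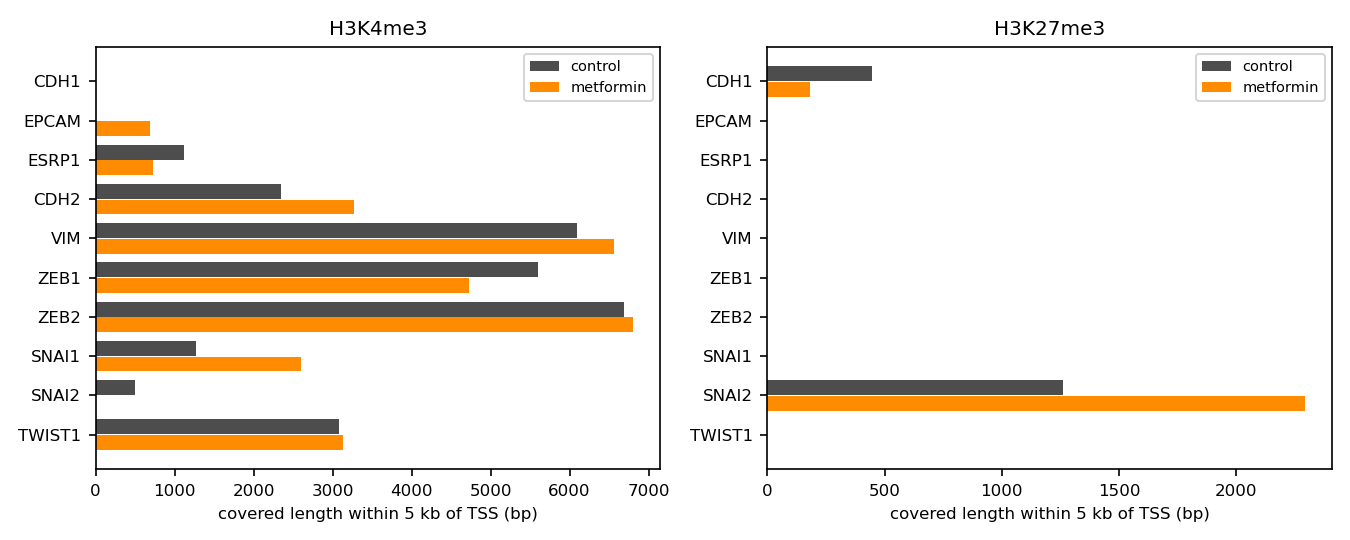
Length in bp covered by H3K4me3 (left) and H3K27me3 (right) within 5 kb of each TSS, with 1 bar for the control library (grey) and 1 for the metformin library (orange), so no error can be drawn. ZEB2, VIM and ZEB1 had the most H3K4me3 in both conditions, and H3K27me3 was listed at CDH1 and SNAI2.

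Among the epithelial genes, CDH1 had no H3K4me3. CDH1 encodes E-cadherin, the adhesion protein of epithelial junctions, and its TSS is at chr16:68771195. The nearest H3K4me3 lay 104477 bp downstream of the TSS in control cells and 104772 bp downstream after metformin. The 50 kb on either side therefore held 0 bp of the mark in both lists. H3K27me3 covered 446 bp in the CDH1 window in control cells, at chr16:68768174-68768619, and 184 bp after metformin, at chr16:68770410-68770593. Their values were 1.56 and 1.51. The authors deposited 1 number for each line of a list, read here as −log10 q. The value of an interval is that number, or the highest where several lines gave the same interval. For H3K27me3 the lists start at 1.01 and 1.00. The CDH1 intervals thus stood near the middle of their lists by value (56.7% and 50.9% of intervals had the same or a lower one). They did not overlap, the control interval ending 2576 bp and the metformin interval 602 bp upstream of the TSS. Across the genome 43.3% of control and 44.3% of metformin H3K27me3 intervals with values from 1.5 to under 2 had no partner in the other list. Part of the neighbouring cadherin gene CDH3 lies within 5 kb of the CDH1 start on GRCh38.p14.

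EPCAM, which encodes an epithelial cell adhesion molecule, had H3K4me3 over its TSS in the metformin list and none in the control list. The metformin interval was chr2:47595767-47596460, from 520 bp upstream to 173 bp downstream of the TSS, with a value of 5.44. The interval was 694 bp long, and 44.8% of metformin H3K4me3 intervals had the same or a lower value. Among metformin H3K4me3 intervals with values from 5 to under 8, 32.4% had no control partner. In control cells the nearest H3K4me3 lay 33200 bp downstream, with a value of 21.4, and the nearest after metformin outside the window lay 32506 bp downstream. The nearest H3K27me3 to the EPCAM start lay 19731 bp away in control cells and 19959 bp away after metformin.

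ESRP1, an RNA-binding protein that directs epithelial splicing, had a single H3K4me3 interval in each list, upstream of the TSS and not over it. In control cells it was chr8:95652100-95653216, 1117 bp long, with a value of 3.09. After metformin it was chr8:95652270-95652997, 728 bp long, with a value of 7.24. The metformin interval lay wholly inside the control interval, so the covered length was 0.652 times as large although the deposited value was higher. Values from separate lists rest on separate libraries of unknown depth, so this does not rank the mark between conditions. The intervals ended 86 bp and 305 bp upstream of the TSS.

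Among the structural genes of the mesenchymal state, VIM had more than 6 kb of H3K4me3 in its window in both conditions. VIM encodes vimentin, the intermediate filament of mesenchymal cells. H3K4me3 covered 6093 bp in control cells and 6562 bp after metformin, and 100% of the control length was also covered after metformin. An interval over the TSS ran from 1763 bp upstream to 145 bp downstream in control cells (chr10:17268495-17270403, value 11.3) and from 1773 bp upstream to 826 bp downstream after metformin (chr10:17268485-17271084, value 20.7). In control cells a short interval 544 to 805 bp downstream (value 3.57) lay where the longer metformin interval continued. Further into the gene the control list held chr10:17271337-17278776, which is 7440 bp long and has 20 sub-peaks with values up to 30.6. This was the longest interval at any of the 10 genes, and 99.9% of control H3K4me3 intervals were of that length or shorter. The metformin list covered it with chr10:17271297-17275326 (4030 bp, value 32.4) and chr10:17275571-17278279 (2709 bp, value 15.3), the latter starting 5313 bp from the TSS and so just outside the window. The same stretch was thus 1 interval in control cells and 2 after metformin, with 90.0% of the control interval covered.

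CDH2, which encodes N-cadherin, had 4 H3K4me3 intervals in each list. They covered 2353 bp in control cells and 3266 bp after metformin, 1.39 times as much, and 90.9% of the control length was shared. A short interval lay over the TSS in both, chr18:25757239-25757566 in control cells (328 bp, value 7.59) and chr18:25757196-25757525 after metformin (330 bp, value 5.67). The highest value stood at the interval that follows it downstream, with 13.8 in control cells (chr18:25755718-25756719, 1002 bp) and 15.3 after metformin (chr18:25755013-25756765, 1753 bp). Of the covered length, 2035 of 2353 bp in control cells and 2568 of 3266 bp after metformin lay downstream of the TSS. The nearest H3K27me3 to the CDH2 start lay 1222985 bp away in control cells and 833509 bp away after metformin.

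The ZEB genes encode zinc-finger repressors of CDH1 and, with VIM, had the most H3K4me3. At ZEB1 it covered 5595 bp in 5 control intervals and 4729 bp in 5 metformin intervals. Among genes marked in both lists, ZEB1 (0.845 times) and ESRP1 had the smaller covered length after metformin. The difference lay mainly upstream, where 2768 bp were covered in control cells and 1988 bp after metformin, whereas the downstream lengths were 2827 and 2741 bp. The upstream interval next to the TSS was chr10:31606657-31607933 in control cells (value 30.6) and chr10:31606369-31607931 after metformin (value 22.1). The longest ZEB1 interval lay downstream, with 2312 bp in control cells (chr10:31608982-31611293, value 24.8) and 2212 bp after metformin (chr10:31609028-31611239, value 22.1). The interval just downstream of the TSS had nearly the same bounds in both lists, 86 to 600 bp in control cells and 72 to 600 bp after metformin, at values of 4.55 and 13.7.

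ZEB2 had the largest H3K4me3 coverage of the 10 genes, 6685 bp in 6 control intervals and 6808 bp in 5 metformin intervals. Of the tiles with H3K4me3, 98.8% in control cells and 98.6% after metformin had less than the ZEB2 window. For the VIM window the shares were 97.87% and 98.25%. Tiles are not centred on starts, so these shares do not rank the genes among promoters. Its downstream interval was the highest in value at these genes in both lists. It was chr2:145274728-145277725 in control cells (2998 bp, value 45.5) and chr2:145274728-145277901 after metformin (3174 bp, value 41.0), with the same end inside the gene. Upstream, a block of 1438 bp in control cells (value 28.5) and 1747 bp after metformin (value 25.0) was followed by a 418 and 428 bp interval with values of 17.8 and 22.1. The outermost upstream ZEB2 interval crossed the 5 kb limit. It ran from 5074 to 4855 bp upstream in control cells (value 1.56) and from 5093 to 4931 bp after metformin (value 5.54). The nearest H3K27me3 to the ZEB2 start lay 2961082 bp away in control cells and 3180818 bp away after metformin.

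**Figure D3:**
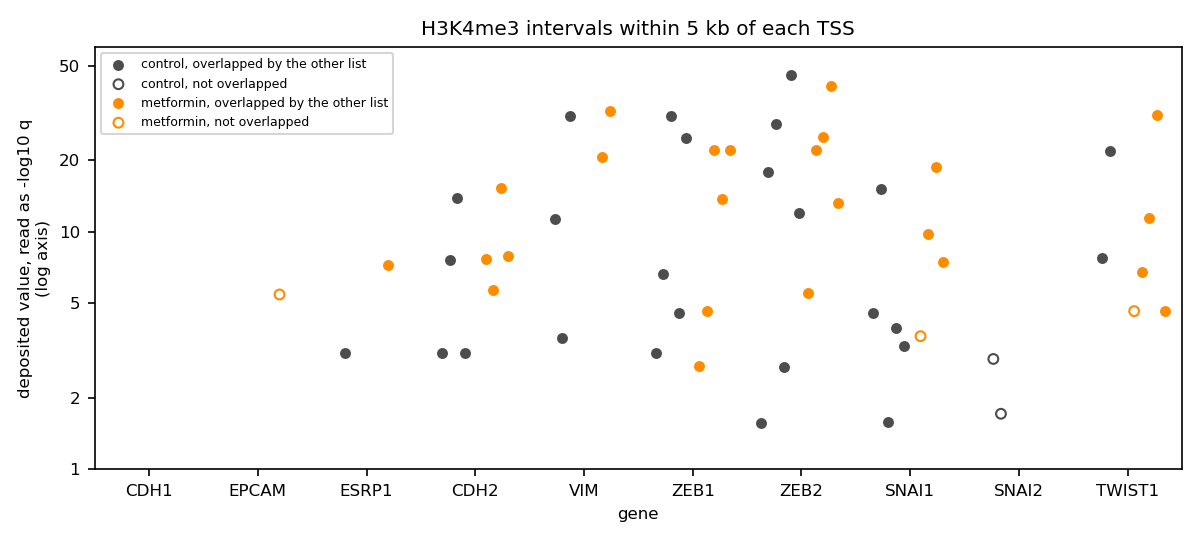
Deposited value (the highest per interval), read as −log10 q (log axis), of each H3K4me3 interval within 5 kb of the TSS. Intervals are shown by gene, with control in grey and metformin in orange. Points of a gene and condition are spread along the x axis from the most upstream to the most downstream interval. Open circles are intervals with no overlap in the other list, and all 5 of them lie at 5.44 or lower.

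SNAI1 encodes Snail, a zinc-finger repressor whose rise often opens the transition. Its H3K4me3 covered 1270 bp in 5 control intervals and 2606 bp in 4 metformin intervals, 2.05 times as much, and 97.7% of the control length was also covered after metformin. The control intervals were between 171 and 358 bp long. The highest in both lists began next to the TSS, chr20:48599538-48599892 in control cells (355 bp, value 15.1) and chr20:48599520-48600381 after metformin (862 bp, value 18.7). Further downstream the control intervals of 358 bp (value 3.92) and 171 bp (value 3.29) lay inside a single metformin interval of 952 bp (value 7.44). The metformin list also held chr20:48595727-48595907, 3606 bp upstream, with a value of 3.63 and no control partner. Among all metformin H3K4me3 intervals with values under 5, 62.7% had none.

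TWIST1, a basic helix-loop-helix factor of mesoderm and neural crest, was covered over 3076 bp in control cells and 3130 bp after metformin. The main TWIST1 interval lay downstream of the TSS in both lists, chr7:19154065-19156634 in control cells (2570 bp, value 21.9) and chr7:19154320-19156636 after metformin (2317 bp, value 30.9). Over the TSS the control list held 1 interval of 506 bp (chr7:19157154-19157659, value 7.78). The metformin list held 2 shorter ones there, of 170 bp over the TSS (value 11.5) and of 167 bp upstream (value 6.76). A further metformin interval 596 to 888 bp upstream (293 bp, value 4.63) had no control partner. The nearest H3K27me3 to the TWIST1 start lay 2904784 bp away in control cells and 1672673 bp away after metformin.

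SNAI2, which encodes the Snail relative Slug, was the exception among the mesenchymal genes. In control cells it had H3K4me3 in 2 short intervals that flank the TSS, chr8:49834050-49834305 upstream (256 bp, value 2.91) and chr8:49833542-49833790 downstream (249 bp, value 1.71). The metformin list held none, and its nearest H3K4me3 lay 405821 bp away. H3K27me3 covered 1261 bp of the SNAI2 window in 1 control interval and 2294 bp in 4 metformin intervals, 1.82 times as much. The control H3K27me3 interval was chr8:49830833-49832093 (value 1.26), from 1895 to 3155 bp downstream of the TSS, and chr8:49831498-49832496 (999 bp, value 1.38) overlapped it over 596 bp after metformin. The other metformin intervals were chr8:49833382-49833581 and chr8:49834263-49834763 on the 2 sides of the TSS (values 1.22 and 1.19) and chr8:49837303-49837896 further upstream (value 1.35). Those 2 beside the TSS covered 83 bp of the sequence that had H3K4me3 in the control list.

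The SNAI2 values lay low in their lists. Of control H3K4me3 intervals 22.2% had the same value as the upstream SNAI2 interval or a lower one, and 6.23% as the downstream one. Of control H3K4me3 intervals with values under 3, 54.2% had no metformin partner. The 3 unshared metformin H3K27me3 intervals ranked at 7.93%, 5.00% and 28.7% of their list. Of metformin H3K27me3 intervals with values under 1.5, 64.5% had no control partner. Of the 2673 tiles with both marks in the control lists, 3.59% had no H3K4me3 and a longer H3K27me3 length after metformin, as the SNAI2 window did. This class of tiles was not planned and was not matched to the low SNAI2 values. Its share therefore does not show the SNAI2 pattern to be rare. At a value of 5 or more no H3K4me3 at SNAI2 was left in either list, and at 1.5 or more no H3K27me3 was left there.

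Summed over the 7 mesenchymal windows, 17743 bp of H3K4me3 lay downstream of the TSS and 7831 bp upstream in control cells, and 19115 and 7983 bp after metformin. ZEB2, VIM, TWIST1 and CDH2 gave most of that difference. At ZEB1 the control lengths were nearly equal on the 2 sides, and at SNAI2 they were 249 bp downstream and 256 bp upstream. No background was computed for these positions. At least 6 of the 7 genes were covered from 1241 to 1598 bp downstream in control cells, and from 72 to 141 bp and from 1060 to 2011 bp downstream after metformin. The 1 TSS used for each gene was under H3K4me3 at 3 of the 7 genes, CDH2, VIM and TWIST1, in each condition. Upstream, the lists differed in both directions. At least 5 of the 7 genes were covered from 823 to 615 bp upstream after metformin, where 2 or 3 were covered in control cells at the positions read every 50 bp. VIM and ZEB1 were covered there in both lists, and CDH2 over part of it in control cells. SNAI1 and TWIST1 were covered there after metformin only, TWIST1 by its interval without a control partner (value 4.63). At 100 bp upstream 4 genes were covered in control cells and 1 after metformin. At 150 bp upstream the counts were 3 and 1, and at 50 bp upstream 3 and 2. Both the stretch and the 100 bp position were chosen after their values were seen. At 100 bp upstream VIM was covered in both lists. The CDH2 interval over the TSS began 121 bp upstream in control cells and 80 bp upstream after metformin, and that of TWIST1 364 and 28 bp upstream, while SNAI2 had no metformin interval.

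**Figure D4:**
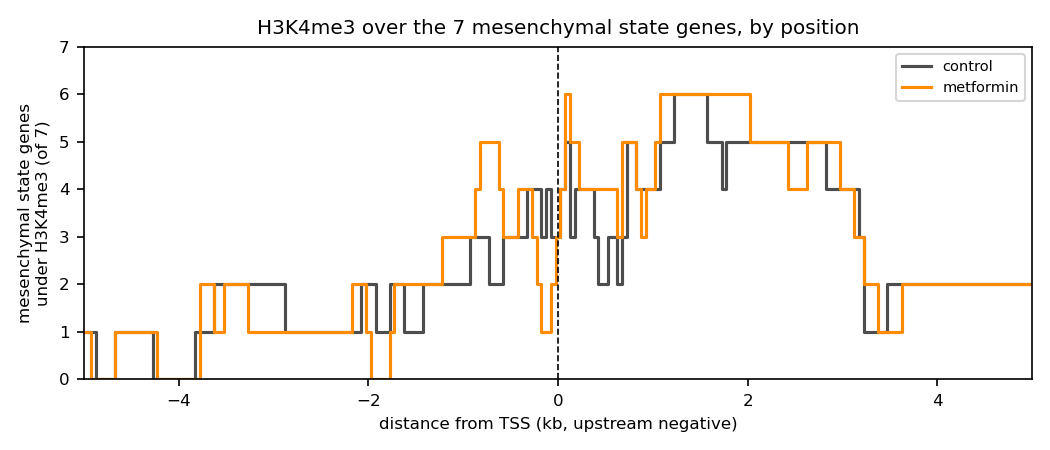
Number of the 7 mesenchymal genes under H3K4me3 at each position from 5 kb upstream (negative) to 5 kb downstream of the TSS, read every 50 bp, for the control (grey) and metformin (orange) lists. Both lines reach 6 genes downstream of the TSS, in a wider stretch for metformin. Upstream the metformin line is, among other positions, the higher between 823 and 615 bp and the lower from 250 to 50 bp. It stands at 1 gene at 150 and 100 bp, against 3 and 4 for control.

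At ZEB1, ZEB2 and SNAI1 the H3K4me3 intervals lay on both sides of the TSS used here and left it uncovered in both conditions. RefSeq lists 7 starts for ZEB1, and whether other starts of these genes were covered was not tested. The uncovered stretch was 253 bp in control cells and 241 bp after metformin at ZEB1, 409 and 219 bp at SNAI1, and 2136 and 2072 bp at ZEB2. At SNAI2 it was 259 bp in control cells. The ZEB2 stretch lay mostly upstream, where the first interval ended 1904 bp from the TSS in control cells and 2016 bp after metformin. On GRCh38.p14 other genes lie within 5 kb of the starts of several of these genes besides CDH1: VIM-AS1 at VIM, ZEB1-AS1 at ZEB1, ZEB2-AS1, LINC01412 and LINC02993 at ZEB2, LINC02894 at ESRP1, LOC107986942 at SNAI2 and LOC124901597 at TWIST1. Histone marks carry no strand, so the marks there, including the ESRP1 interval upstream of the TSS, cannot be divided between a gene and its neighbour.

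Between the genes, CDH2 and TWIST1 had the most similar layout. The shared part of their covered positions, counted relative to the TSS over both marks and both conditions (Jaccard index, 1 for identical layouts), was 0.650. It was 0.518 for VIM and ZEB1 and 0.464 for VIM and ZEB2. These values are descriptions of 4 lists and carry no test. Between the conditions the layout of H3K4me3 was most alike at VIM (0.929) and ZEB2 (0.882). Lower values were found at ZEB1 (0.785), TWIST1 (0.742), ESRP1 (0.652), CDH2 (0.614) and SNAI1 (0.471). EPCAM and SNAI2, each marked in 1 list, were at 0.

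As a set, the control intervals at these genes were near the middle of their list in value and width. The 28 control H3K4me3 intervals had a median value of 5.61 against 5.73 for the whole list, and 14 lay above the list median. After metformin 19 of 27 lay above it, with a median of 9.75 against 6.31. In each condition the intervals came from 8 genes, so they are not separate observations. The low SNAI2 values count in the control list only, and a difference between the conditions was not tested. Median widths were 510 bp against 517 bp in control cells and 617 bp against 524 bp after metformin. Intervals of 2 kb or more numbered 5 in each condition, at VIM, ZEB1, ZEB2 and TWIST1, where 14.6% of all control and 16.4% of all metformin intervals are that long.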

How the data were processed

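The 4 peak lists of 6 samples were used, 1 per ChIP library, and samples were not pooled, per the labels. Per the labels' protocols, fixed chromatin was cut with micrococcal nuclease before precipitation. The submitters' processing notes name Trimmomatic 0.38, Bowtie, MACS2 and hg19 (GRCh37). No source used here gives their options or the background library. The 1 value per peak that the authors deposited was read as −log10 q from the values: the H3K4me3 lists start at 1.31, just above the −log10 of 0.05 (1.30), and the H3K27me3 lists just above 1, the −log10 of 0.1. Read depth is unknown, so intervals of the mark that were not listed may have fallen below the calling limit.

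Lines with the same interval were joined and carry their highest value, coordinates are 1-based, and an interval belonged to a gene if any base lay within 5 kb of its TSS. A partner is an interval of the other condition that overlaps by 1 bp or more. The background was 303389 tiles of 10 kb on 23 chromosomes. Exact 95% intervals of the tile shares cover counting error only, and the widest of those for H3K4me3 and H3K27me3 presence ran from 14.4% to 14.7%. With 1 library per group no test was made. All 10 genes are named. The genes, lists and settings were chosen with earlier results of these data known, and the shares of unpartnered intervals by class of value were added after seeing the data. The class of tiles with both marks in the control lists was not planned either. Other epithelial and mesenchymal genes were not analysed here, since no gene positions on hg19 were at hand. Overlap code was tested on simulated data (the control lists thinned and shifted). Of kept intervals 100% were recovered and of the others 0%, for 50585 H3K4me3 and 85579 H3K27me3 intervals. On the real lists, the numbers of control intervals overlapped by a metformin interval equalled those of bedtools 2.31.1. Python 3.11.15, pandas 2.3.3, numpy 2.4.6, scipy 1.17.1 and matplotlib 3.10.9 were used.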

Additional observations from a re-analysis of the deposited data

How the results depend on the processing

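No paired analysis was possible because each group held a single library, and no replicate could be left out. Of 70 recomputed values, 50 stayed within 1.5 times, but some of these could not have changed under their setting. H3K4me3 was near 8 genes in both conditions under each setting except a value of 5 or more, which left 6 control genes. The marks met at 0 genes under each setting tried. Only the 10 kb window and the merging of intervals could have raised that number, so the other settings are no check of it. With a 2 kb window H3K4me3 covered 14521 bp (control) and 16751 bp (metformin), H3K27me3 covered 106 and 1394 bp, and H3K27me3 was near 1 control gene with 0 unpartnered control intervals; with 10 kb that number was 2. At H3K27me3 values of 1.5 or more, CDH1 was the 1 gene left in each condition, with 446 and 184 bp and 1 unpartnered metformin interval. At H3K4me3 values of 5 or more, 0 control and 8 metformin intervals lacked a partner, since the control list was shortened too. With 50% overlap required, 5 and 7 H3K4me3 intervals and 2 control H3K27me3 intervals lacked one. With intervals within 1 kb merged, 1 control H3K4me3 and 2 metformin H3K27me3 intervals lacked one, and metformin H3K27me3 covered 4044 bp. Lists of equal length left the number of marked genes and the covered lengths as they were, and were not applied to the other counts. That setting shortened the metformin lists alone, so the control values could not change. The share of control H3K4me3 intervals without a partner, 22.7% over the list, was 54.2% for values under 3.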
